A study of Mus musculus with 4 samples.

Results

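The elastic fibre and microfibril genes are 10 of the 23537 genes in an RNA count table of mouse embryonic fibroblasts (MEFs). They were chosen by name and are *Eln*, *Fbn1*, *Fbn2*, *Fbln1*, *Fbln2*, *Fbln5*, *Mfap2*, *Mfap4*, *Mfap5* and *Emilin1*. RNA was sequenced from 2 *Mbd4*-/- samples (KO) and 2 *Mbd4*+/+ samples (WT), all C57BL/6 MEFs from embryos at day 12.5 post coitum, grown to subconfluence. MBD4 is a DNA glycosylase that binds methylated DNA and excises thymine or uracil from mismatches with guanine, and the comparison asks which transcripts differ when its gene is disrupted. How many embryos or cultures stand behind the samples of a genotype is not stated, so the spread that enters the p-values may be technical rather than biological.

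Elastic fibres give skin, lung and large arteries their recoil. Fibrillins are secreted and polymerise into microfibrils, and tropoelastin, the product of *Eln*, is laid down on this scaffold with the help of fibulins and crosslinked by lysyl oxidases. Microfibrils also occur without elastin, and they hold latent TGF-beta and BMP growth factors in the matrix. EMILIN-type proteins and the small microfibril-associated glycoproteins sit on the surface of the scaffold or between it and the elastin core.

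The KO MEFs differed from the WT MEFs in every one of the 9 genes that could be tested, but in both directions. *Mfap4*, *Fbln1*, *Fbn2* and *Emilin1* were up-regulated, and *Fbln2*, *Mfap5*, *Mfap2*, *Fbn1* and *Fbln5* were down-regulated, at an adjusted p under 0.05 in edgeR's quasi-likelihood test. *Eln*, which encodes the fibre's elastic protein, was nearly silent in all 4 libraries and was removed by the filter on low counts. Changes of this kind were common, since 34.3% of the 15538 genes tested were higher and 32.5% were lower in KO MEFs at the same threshold. Higher genes made up 51.4% of these calls, or 62.6% where libraries were scaled by their totals. At the stricter threshold, an adjusted p under 0.01 with an absolute log2 fold change over 2, *Mfap4* (higher) and *Fbln2*, *Mfap5* and *Mfap2* (lower) passed, against 8.94% of all genes tested. *Mfap4* and *Mfap5* entered the test only through the genotype in which they were high.

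The 4 libraries held 39108275 to 47567835 counts. *Mbd4* had 373 and 302 counts in KO MEFs and 663 and 630 counts in WT MEFs, so its transcript was lower in KO MEFs (log2 fold change -0.99) without being absent. *Ift122*, an intraflagellar transport gene that starts beside *Mbd4* on the opposite strand, had 7 and 3 counts in KO MEFs and 1002 and 944 counts in WT MEFs. Whether a difference between the genotypes goes with *Mbd4* or with *Ift122* cannot be told apart in this design. Of 12 fibroblast markers, *Col1a1*, *Col1a2*, *Col3a1* and *Vim* were abundant in each library. *Dcn* had 5 and 7 counts in KO MEFs against 1349 and 1123 counts in WT MEFs. *Lum* had 0 and 1 count in KO MEFs against 142 and 131 counts in WT MEFs. *Dcn* and *Lum* entered the test only through WT MEFs. *Prrx1* went the other way, with 25245 and 21228 counts in KO MEFs against 5567 and 6268 counts in WT MEFs. Of the 12, 1 was higher, 7 were lower and 4 (*Pdgfra*, *Pdgfrb*, *Thy1* and *Twist1*) were not past the test. In bulk samples fewer cells of a type and less RNA per cell cannot be told apart.

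Promoter sequences show where these genes differ in CpG content, CpG being the dinucleotide whose methylated form MBD4 binds. Methylation was not analysed here. The RefSeq promoter table for GRCm38.p6 matched 6 of the 10 genes, and *Eln*, *Fbn2*, *Mfap4* and *Mfap5* are named only. Below are the 250 bases before the first listed start of 3 down-regulated genes and 1 up-regulated gene, read 5′ to 3′ on the gene's strand, with each CG dinucleotide in capitals. CG reads the same on both strands. The windows are *Fbn1* at chr2:125506439-125506688 (minus strand), *Fbln2* at chr6:91212514-91212763 (plus strand), *Fbln5* at chr12:101819120-101819369 (minus strand) and *Fbln1* at chr15:85205699-85205948 (plus strand), all in GRCm38.p6, whereas the gene positions given with the counts are in mm9.
Fbn1: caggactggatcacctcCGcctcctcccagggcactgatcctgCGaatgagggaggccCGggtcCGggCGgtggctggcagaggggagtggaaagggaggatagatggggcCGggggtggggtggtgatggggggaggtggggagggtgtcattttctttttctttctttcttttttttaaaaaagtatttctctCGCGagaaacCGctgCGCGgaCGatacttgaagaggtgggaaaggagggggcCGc
Fbln2: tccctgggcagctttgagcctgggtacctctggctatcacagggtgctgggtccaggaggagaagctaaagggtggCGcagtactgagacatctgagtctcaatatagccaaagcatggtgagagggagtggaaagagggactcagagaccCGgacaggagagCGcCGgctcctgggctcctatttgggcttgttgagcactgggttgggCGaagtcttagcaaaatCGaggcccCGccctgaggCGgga
Fbln5: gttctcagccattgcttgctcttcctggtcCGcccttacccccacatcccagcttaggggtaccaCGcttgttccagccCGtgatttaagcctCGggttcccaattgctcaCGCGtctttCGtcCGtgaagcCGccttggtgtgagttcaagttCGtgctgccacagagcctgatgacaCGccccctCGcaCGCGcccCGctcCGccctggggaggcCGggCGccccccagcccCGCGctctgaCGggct
Fbln1: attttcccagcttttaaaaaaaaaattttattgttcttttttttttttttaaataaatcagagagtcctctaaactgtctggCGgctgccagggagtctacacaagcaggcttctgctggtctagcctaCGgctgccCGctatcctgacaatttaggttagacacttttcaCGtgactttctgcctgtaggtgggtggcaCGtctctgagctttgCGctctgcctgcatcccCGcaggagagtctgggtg
The *Fbln5* window held 21 CG, a number reached by 16.4% of the 32851 promoter windows of the same length. The *Fbn1* window held 13 CG (reached by 31.5%), the *Fbln2* window 8 CG (43.0%) and the *Fbln1* window 7 CG (46.3%). The median of all windows was 6 CG. Among the first listed windows not shown, that of *Mfap2*, which was lower in KO MEFs, held 18 CG (21.7%), and that of *Emilin1*, which was higher, held 4 CG (62.2%). The 4 down-regulated genes with a window thus held 8 to 21 CG and the 2 up-regulated ones 4 and 7, a description of 6 windows with no test. The order depends on the start taken, since second listed starts gave 14 CG for *Fbln1*, 6 for *Fbln5* and 5 for *Mfap2*.

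The elastin gene itself was close to the detection limit. *Eln* (ENSMUSG00000029675), at chromosome 5 from 135179651 to 135223111 of mm9 (minus strand), had 14 and 8 counts in KO MEFs and 1 and 4 counts in WT MEFs. Both KO libraries were above both WT libraries, but the gene took up at most 0.295 CPM (the depth-scaled count, here on TMM-scaled library sizes) in any of them. The summed counts, each divided by the TMM-scaled library sizes, were 4.25-fold higher in KO MEFs, with an exact 95% interval of 1.57 to 14.4 that covers counting error only. Without the filter on low counts its log2 fold change was 2.0 (adjusted p = 0.034, edgeR). With the filter, *Eln* could be tested in 3 of the 4 fits that left out a library. Its log2 fold change was 2.28 without KO replicate 2 (adjusted p = 0.071), 1.31 without WT replicate 1 (adjusted p = 0.211) and 3.28 without WT replicate 2 (adjusted p = 0.019), so a difference in *Eln* was not established at this depth.

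**Figure D1:**
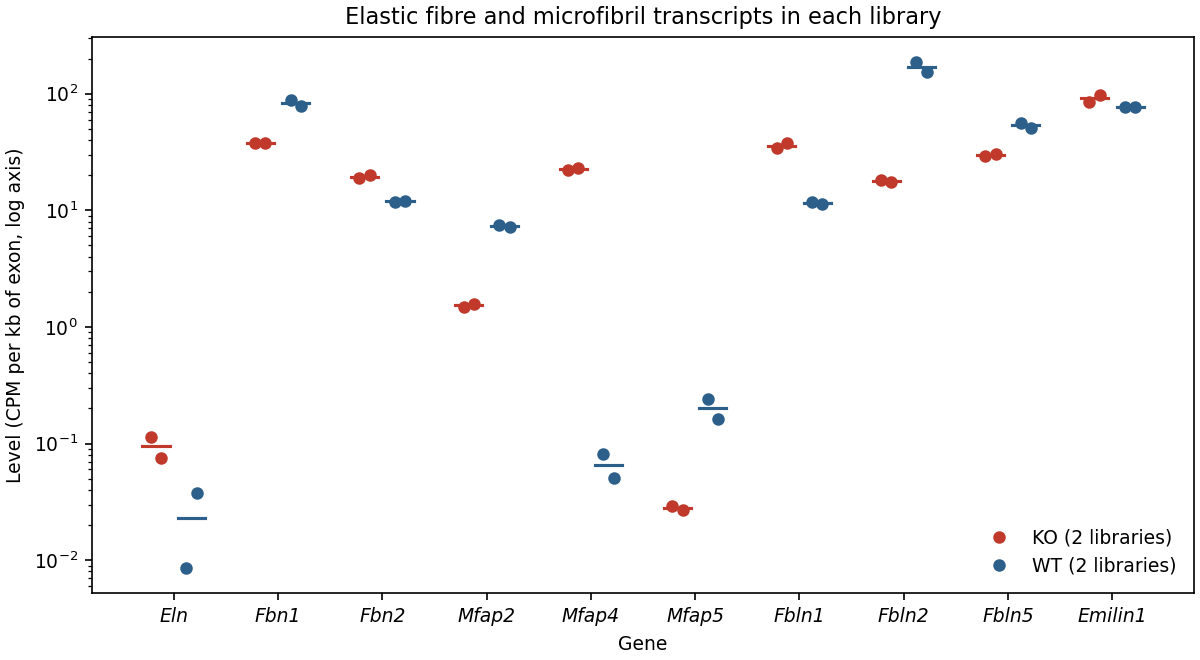
Level of each gene in every library, in CPM per kb of exon on a log axis. Points are libraries, KO left of WT, and short lines are the means of 2 libraries. *Mfap4* lies at 22.0 and 22.8 in KO MEFs and at 0.0813 and 0.0508 in WT MEFs, and *Eln* lies below 0.12 in all libraries.

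The fibrillins, which form the microfibril backbone, moved in opposite directions. *Fbn1* (ENSMUSG00000027204), the main fibrillin of postnatal tissues, lies at chromosome 2 from 125126330 to 125333729 (minus strand). It had 21815 and 18714 counts in KO MEFs, against 47660 and 38632 counts in WT MEFs. Scaled, this was 457 ± 3.51 CPM in KO MEFs and 1004 ± 85.6 CPM in WT MEFs (SD, n = 2 each), a 2.20-fold lower level in KO MEFs (log2 fold change -1.14, SE 0.07, adjusted p = 6.6e-09, edgeR). *Fbn1* shares exon sequence with *Gm9913* on the opposite strand, which had only 12 to 24 counts in the libraries.

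*Fbn2* (ENSMUSG00000024598), a fibrillin best known from embryonic microfibrils, lies on the minus strand of chromosome 18 from 58168277 to 58369580. It had 9452 and 8596 counts in KO MEFs, against 5559 and 5193 counts in WT MEFs. The 204 ± 6.84 CPM in KO MEFs were 1.62-fold above the 125 ± 1.87 CPM in WT MEFs (SD, n = 2 each, log2 fold change 0.70, SE 0.06, adjusted p = 1.8e-07, edgeR). Per kb of exon and within each library, the ratio of *Fbn2* to *Fbn1* was 0.501 and 0.532 in KO MEFs, against 0.135 and 0.156 in WT MEFs. *Fbn1* was thus the more abundant fibrillin in all 4 libraries, and the ratios of the genotypes did not overlap.

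The 3 microfibril-associated glycoproteins showed the widest spread. *Mfap4* (ENSMUSG00000042436), a fibrinogen-related protein that binds fibrillin and elastin, lies on the plus strand of chromosome 11 from 61298933 to 61302402. It had 2014 and 1810 counts in KO MEFs, against 7 and 4 counts in WT MEFs. The summed counts, each divided by the TMM-scaled library sizes, were 336-fold higher in KO MEFs, with an exact 95% interval of 188 to 673 that covers counting error only, and the fitted log2 fold change was 8.36 (SE 0.17, adjusted p = 1.7e-13, edgeR). Its last 89 bases overlap *Mapk7*, a kinase gene on the opposite strand with 1798 and 1633 counts in KO MEFs and 884 and 759 counts in WT MEFs. The libraries keep the strand, but whether the counting used it is not given in the sources. The part of *Mapk7* reads in the *Mfap4* counts was not tested.

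*Mfap2* (ENSMUSG00000060572), a small glycoprotein bound to most microfibrils, lies on the plus strand of chromosome 4 from 140566333 to 140571899. It had 86 and 79 counts in KO MEFs, against 403 and 358 counts in WT MEFs, and was 4.76-fold lower in KO MEFs (log2 fold change -2.25, SE 0.15, adjusted p = 2.5e-08, edgeR). *Mfap5* (ENSMUSG00000030116), its relative on chromosome 6 (plus strand, 122455863 to 122479308), had 5 and 4 counts in KO MEFs, against 39 and 24 counts in WT MEFs. It was rare in both genotypes, and the summed counts, scaled in the same way, were 7.25-fold lower in KO MEFs (exact 95% interval 3.58 to 16.6, counting error only). The fit gave *Mfap5* a log2 fold change of -2.82 (SE 0.48, adjusted p = 1.5e-04, edgeR). The leading gene of this group differed between the genotypes. Per kb of exon, *Mfap4* was 14.8 and 14.4 times as abundant as *Mfap2* in the KO libraries, against 0.0109 and 0.00704 times in the WT libraries. The ratio of *Mfap5* to *Mfap2* was 0.0196 and 0.0171 in KO MEFs, against 0.0327 and 0.0226 in WT MEFs.

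The fibulins, calcium-binding glycoproteins that bridge matrix components, also divided. *Fbln2* (ENSMUSG00000064080), which binds fibrillin, tropoelastin and basement membrane proteins, lies on the plus strand of chromosome 6 from 91162449 to 91222534. It had 5082 and 4204 counts in KO MEFs, against 49224 and 37246 counts in WT MEFs. With 104.5 ± 3.49 CPM in KO MEFs and 1004 ± 134 CPM in WT MEFs (SD, n = 2 each), *Fbln2* was 9.61-fold lower in KO MEFs (log2 fold change -3.26, SE 0.09, adjusted p = 2.9e-12, edgeR). *Fbln2* and *Mfap5* lie on the chromosome of *Mbd4*, 24.6 and 6.65 Mb from it.

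*Fbln1* (ENSMUSG00000006369), a fibulin of the elastin core and of many embryonic matrices, lies on the plus strand of chromosome 15 from 85036379 to 85116965. It had 7049 and 6810 counts in KO MEFs, against 2312 and 2030 counts in WT MEFs, a 3.10-fold higher level in KO MEFs (157 ± 12.0 CPM in KO MEFs and 50.6 ± 1.46 CPM in WT MEFs, SD, log2 fold change 1.63, SE 0.07, adjusted p = 1.9e-10, edgeR). Within each library the ratio of *Fbln2* to *Fbln1*, per kb of exon, was 0.536 and 0.459 in KO MEFs, against 15.8 and 13.6 in WT MEFs. WT MEFs therefore had mainly *Fbln2* of the pair, and KO MEFs mainly *Fbln1*.

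*Fbln5* (ENSMUSG00000021186), which brings tropoelastin and lysyl oxidases to microfibrils and is needed for elastic fibres in mice, lies on the minus strand of chromosome 12 from 102984775 to 103057265. It had 8136 and 7268 counts in KO MEFs, against 14760 and 12031 counts in WT MEFs. The 1.79-fold lower level in KO MEFs (174 ± 3.64 CPM in KO MEFs and 312 ± 25.4 CPM in WT MEFs, SD) was past the test (log2 fold change -0.84, SE 0.07, adjusted p = 9.6e-08, edgeR).

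*Emilin1* (ENSMUSG00000029163), a glycoprotein of the elastin and microfibril interface that also restrains TGF-beta maturation, lies on the plus strand of chromosome 5 from 31215775 to 31223651. It had 20126 and 19996 counts in KO MEFs, against 16919 and 15558 counts in WT MEFs, and it changed least. The 1.20-fold higher level in KO MEFs (454 ± 43.6 CPM in KO MEFs and 379 ± 1.43 CPM in WT MEFs, SD, n = 2 each) had a log2 fold change of 0.26 (SE 0.07, adjusted p = 0.0041, edgeR). This call rested on 1 library, since without KO replicate 2 the log2 fold change was 0.16 (adjusted p = 0.095, the highest of 12 alternatives that began at 1.9e-04, edgeR, DESeq2 or limma-voom).

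**Figure D2:**
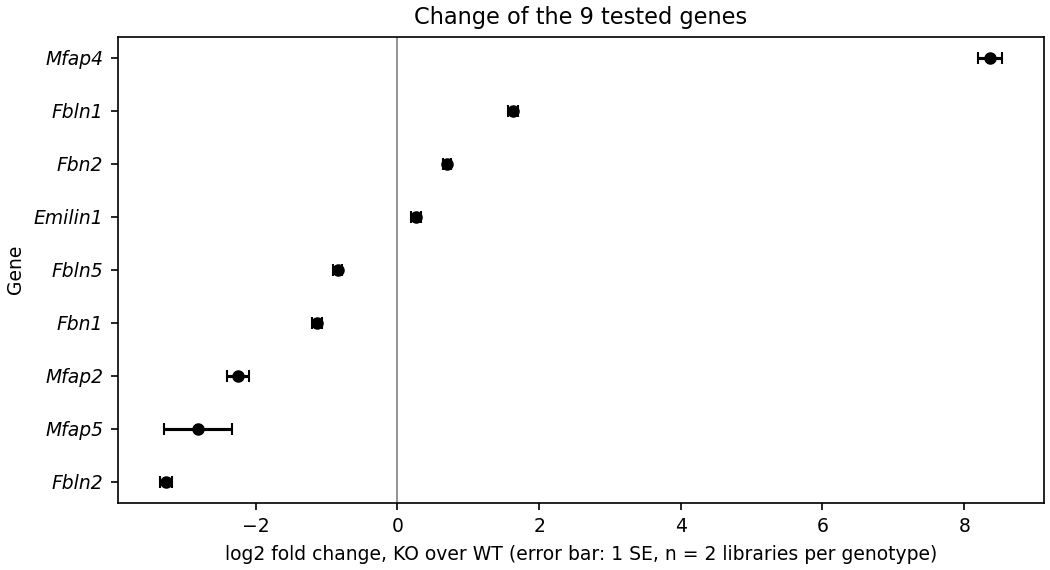
Log2 fold change of the 9 genes tested, KO over WT, with bars of 1 SE from edgeR (n = 2 libraries per genotype). Positive values mean higher in KO MEFs. *Mfap4* (8.36) lies far from the rest and 5 genes lie below 0, from -0.84 for *Fbln5* to -3.26 for *Fbln2*.

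For all 10 genes the KO and WT libraries did not overlap, which was also true of 82.8% of all genes tested. The median log2 fold change of the 9 genes tested was -0.84, beside 0.02 over all genes tested. Together the 10 genes took 0.163% and 0.173% of all counts in KO MEFs and 0.288% and 0.260% in WT MEFs, where *Fbn1* and *Fbln2* held most of the counts. An exact two-sided permutation test of 2 libraries against 2 cannot give a p below 0.33, and this difference and each of the 7 ratios of gene pairs that were computed reached that value. The 3 ratios that involve *Eln* rest on its 1 to 14 counts and are not given.

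The order of the genes by level, in CPM per kb of exon, differed between the genotypes. In KO MEFs *Emilin1* led with 92.0, followed by *Fbn1* (37.6), *Fbln1* (35.9), *Fbln5* (29.8), *Mfap4* (22.5), *Fbn2* (19.4), *Fbln2* (17.8), *Mfap2* (1.54), *Eln* (0.0946) and *Mfap5* (0.0282). In WT MEFs *Fbln2* led with 171, followed by *Fbn1* (82.8), *Emilin1* (76.7), *Fbln5* (53.5), *Fbn2* (12.0), *Fbln1* (11.6), *Mfap2* (7.32), *Mfap5* (0.203), *Mfap4* (0.0661) and *Eln* (0.0232). The libraries of neighbours in these orders overlapped only for *Fbn1* and *Fbln1* in KO MEFs. These orders rest on the union of exons, which for *Emilin1* is 4938 bases against 3853 in its longest transcript. With the longest transcript as the length, some genes close in level change places. In KO MEFs *Fbln1* then comes before *Fbn1*, and *Fbln2* before *Fbn2*. In WT MEFs *Emilin1* then comes before *Fbn1*, and *Fbln1* before *Fbn2*. As a share of the summed level per kb, *Emilin1* held 34.6% and 37.0% in KO MEFs, against 17.4% and 19.7% in WT MEFs. *Fbln2* held 7.35% and 6.54% in KO MEFs, against 42.6% and 39.6% in WT MEFs. The share of *Fbln5* was closer between the genotypes, with 11.9% and 11.4% in KO MEFs and 12.9% in both WT libraries.

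**Figure D3:**
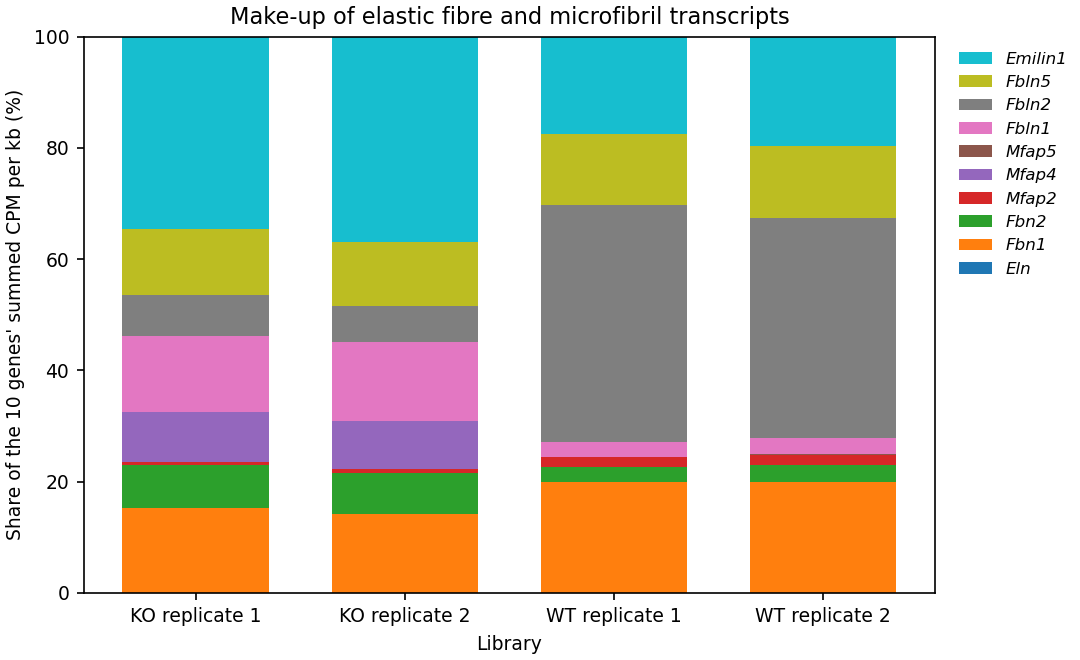
Share of the 10 genes' summed level (CPM per kb of exon) taken by each gene, 1 stacked bar per library, KO libraries left of WT libraries. *Fbln2* fills 7.35% and 6.54% of the KO bars and 42.6% and 39.6% of the WT bars, while *Emilin1*, *Fbln1*, *Fbn2* and *Mfap4* take larger shares in the KO bars.

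The nearest tested genes on either side that do not overlap them were compared with each of the 9 tested genes. Of these 18 neighbours, 8 moved in the same direction as the gene of interest, 6 moved in the other direction and 4 were not past the test. At the same threshold 34.3% of all genes tested were higher and 32.5% were lower, so most genes moved. Beside *Fbln2*, *Hdac11* at 37.8 kb was higher (log2 fold change 1.29, adjusted p = 7.5e-06, edgeR) and *Chchd4* at 192 kb was lower (-1.21, adjusted p = 1.0e-07). Both neighbours of *Fbn1*, *Dut* (-0.63, adjusted p = 1.3e-06) and *Cep152* (-0.38, adjusted p = 4.6e-04), were lower like *Fbn1*. Those of *Mfap5*, *Phc1* (0.36, adjusted p = 0.0012) and *Apobec1* (0.92, adjusted p = 5.7e-04), were both higher, unlike *Mfap5*. Both neighbours of *Mfap4* were higher, with *Aldh3a2* at 0.31 (adjusted p = 0.0037) and *B9d1* at 0.54 (adjusted p = 2.7e-04), and the overlapping *Mapk7*, which is not among the 18, was higher at 1.02 (adjusted p = 8.6e-08).

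Other genes of elastic fibre assembly and turnover were taken from 7 lists of 80 names, of which 76 were in the table on 77 rows. Of the 70 rows tested, 18 (25.7%) were higher and 32 (45.7%) were lower in KO MEFs, with a median log2 fold change of -0.15, beside 34.3% higher and 32.5% lower among all genes. With libraries scaled by their totals, 23 were higher and 28 were lower. *Ltbp2*, *Bmp4*, *Gdf5*, *Fn1*, *Fkbp10*, *Ctsa* and *Thsd4* share exon sequence with another annotated gene, so their counts are uncertain in that part.

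The list of other fibulins, EMILIN family members and microfibril-associated proteins moved both ways. It also holds the matrix genes *Fn1*, *Bgn* and *Vcan*, so not all of its genes are relatives of the 10 genes. Of 12 genes of this list tested, 5 were higher and 3 were lower (median 0.06). *Hmcn1*, the giant fibulin relative hemicentin, was higher (log2 fold change 1.87, adjusted p = 6.8e-11, edgeR), as were *Fbln7* (0.96) and *Emilin2* (0.93). *Fn1*, whose fibronectin network serves as a template for fibrillin deposition, was the most abundant gene of this list per kb and was lower in KO MEFs, with 3334 ± 270 CPM in KO MEFs and 6163 ± 495 CPM in WT MEFs (SD, n = 2 each, log2 fold change -0.89, adjusted p = 3.0e-07). *Mfap3l* (-1.03) and *Hmcn2* (-1.02, below 1 CPM in each library) were also lower. *Efemp1*, a fibulin of fascia and eye, had 7 and 3 counts in KO MEFs against 0 and 1 count in WT MEFs and was not tested. *Efemp2*, another fibulin, was abundant and higher, with 394 ± 15.7 CPM in KO MEFs and 250 ± 12.9 CPM in WT MEFs (SD, n = 2 each). Its log2 fold change was 0.66 (adjusted p = 6.3e-07, edgeR).

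Of 11 latent TGF-beta binding proteins and ligands bound by microfibrils, 6 were lower and 3 were higher (median -0.48). *Bmp7*, among the 3 higher, entered the test only through KO MEFs (27 and 53 counts, against 10 and 4 in WT MEFs). *Tgfb2* was the lowest of the named genes of this list by log2 fold change, with 726 and 613 counts in KO MEFs against 3164 and 3087 counts in WT MEFs (log2 fold change -2.27, adjusted p = 2.5e-11, edgeR). *Ltbp2*, which binds fibrillin and *Fbln5* protein, was lower too (-1.83), like *Tgfb1* (-1.54) and *Tgfb3* (-0.48), the most abundant gene of this list per kb. The BMP family members *Bmp4* (0.86) and *Gdf5* (2.32), a ligand of joint formation, were higher.

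Crosslinking genes were lower in 6 of 7 cases (median -0.47). *Lox*, the lysyl oxidase that crosslinks elastin and collagen, had 1480 ± 4.91 CPM in KO MEFs and 2104 ± 29.9 CPM in WT MEFs (SD, n = 2 each, log2 fold change -0.51, adjusted p = 5.7e-06, edgeR). *Loxl2* (-0.74) and *Loxl4* (-1.40) were lower as well. *Atp7a*, the copper transporter that supplies lysyl oxidases, was higher (0.25, adjusted p = 0.0068), a call that was lost without KO replicate 2 (adjusted p = 0.082, with 2.9e-04 to 0.082 over 12 alternatives).

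Among 8 ADAMTS and ADAMTSL proteins of microfibrils, 5 were higher and 2 were lower (median 0.39). *Adamtsl2*, among the 5 higher, entered the test only through KO MEFs (27 and 27 counts, against 10 and 9 in WT MEFs). *Adamtsl1* had 4332 and 4035 counts in KO MEFs against 147 and 156 counts in WT MEFs (log2 fold change 4.74, adjusted p = 2.3e-13, edgeR). *Thsd4*, which promotes fibrillin assembly, was higher (2.18), as were *Adamts10* (0.56) and *Adamtsl3* (0.22), while *Adamtsl5* (-0.71) and *Adamts6* (-0.56) were lower. Of 13 rows for folding, secretion and processing, 3 were higher and 5 were lower (median -0.13). The collagen prolyl hydroxylase subunits split, with *P4ha2* higher (0.45) and *P4ha1* lower (-0.90), and *Pycr1*, an enzyme of proline synthesis, and the chaperone *Fkbp10* were lower (-0.91 and -0.79). *Ctsa*, the protective protein of the elastin receptor complex, was higher (0.26). The galactosidase *Glb1* stands on 2 rows with overlapping exons, 1 higher (0.56) and 1 lower (-0.35), and its direction is uncertain.

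Of 10 integrins that bind fibrillins, fibulins or EMILINs, 6 were lower and 1 was higher (median -0.40). *Itga5*, the alpha subunit of the classical fibronectin receptor, was lower in KO MEFs (log2 fold change -2.06, adjusted p = 1.2e-10, edgeR), with 2818 and 2591 counts in KO MEFs against 12430 and 9476 counts in WT MEFs. Its partner *Itgb1* was also lower (-1.18), as was *Itgb6* (-4.10, 6 and 4 counts in KO MEFs against 93 and 77 counts in WT MEFs), which entered the test only through WT MEFs. *Itga9*, a subunit of an EMILIN-binding integrin, was higher (1.27). Of 9 proteases that cut elastin or microfibrils, 4 were lower and 0 were higher (median -0.18), and 0 were higher at an unadjusted p under 0.05, in DESeq2 or in limma-voom. *Adamts1* (-1.37), the cathepsin *Ctsl* (-1.07) and the membrane metalloproteinase *Mmp14* (-0.97) were among those that fell.

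**Figure D4:**
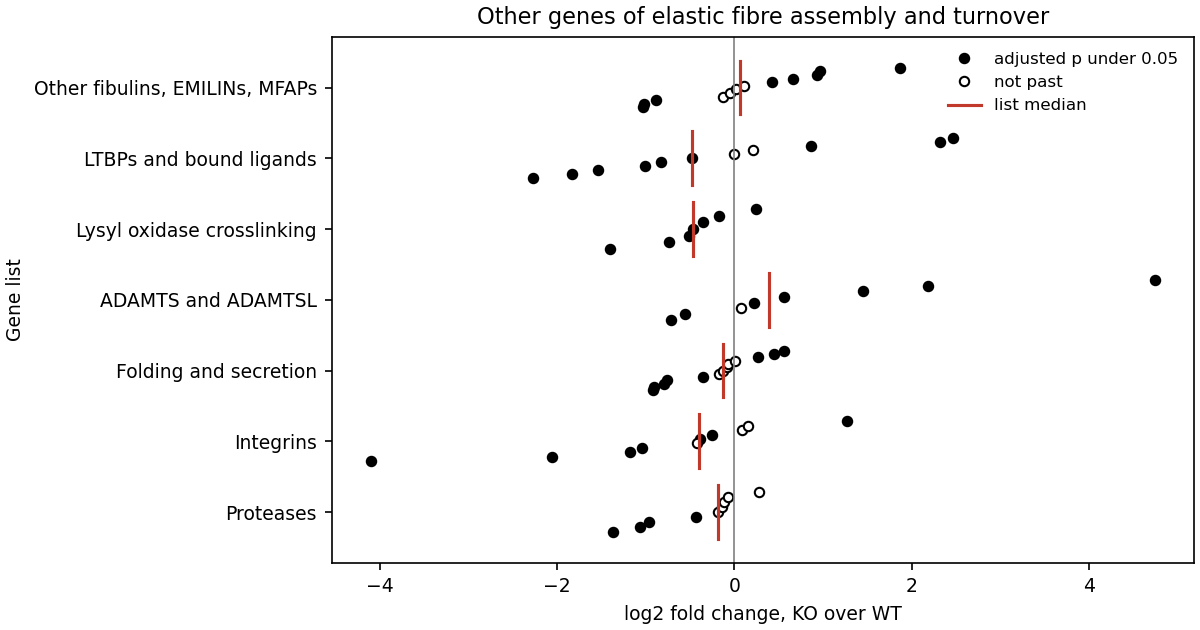
Log2 fold change, KO over WT, of the 70 tested rows in 7 gene lists of elastic fibre assembly and turnover. Filled points passed an adjusted p under 0.05 in edgeR, open points did not, and red bars are list medians. All crosslinking genes but 1 lie below 0, and *Adamtsl1* (4.74) and *Itgb6* (-4.10, a gene that passed the filter only through WT MEFs) lie farthest out.

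Some markers of other cell types also differed between the genotypes, and their part in the values above was not tested. Of 10 smooth muscle markers, 3 were higher and 4 were lower, with a summed level of 4370 to 4393 CPM in KO MEFs against 5930 to 6765 CPM in WT MEFs. *Myocd*, the coactivator that drives smooth muscle genes, had 561 and 567 counts in KO MEFs against 4 and 0 counts in WT MEFs, whereas *Acta2* was lower (log2 fold change -0.52). *Myocd*, among the 3 higher markers, entered the test only through KO MEFs. Of 6 cartilage markers 1 was higher and 4 were lower, with a summed level of 138 to 157 CPM in KO MEFs against 426 to 466 CPM in WT MEFs. *Col9a1*, among the 4 lower, entered the test only through WT MEFs (20 and 18 counts, against 0 and 0 in KO MEFs). Of 4 tendon and ligament markers 1 was higher and 1 was lower. *Tnmd*, a tendon membrane protein, had 10577 and 8605 counts in KO MEFs against 121 and 103 counts in WT MEFs. *Scx* went the other way, with 1912 and 1867 counts in KO MEFs against 4118 and 3272 counts in WT MEFs (log2 fold change -1.01). *Mkx* and *Fmod* were not past the test. Of 4 endothelial markers tested, 0 passed in edgeR, DESeq2 or limma-voom and 0 had an unadjusted p under 0.05, and *Cdh5*, which defines endothelium, had 0 and 0 counts in KO MEFs against 0 and 2 counts in WT MEFs. The summed level of 12 fibroblast markers was 10453 to 11188 CPM in KO MEFs against 16125 to 17933 CPM in WT MEFs, with 1 higher and 7 lower. Neural markers summed to 139 to 143 CPM in KO MEFs against 378 to 460 CPM in WT MEFs, mostly *Nes*, and epithelial, mesothelial and blood markers to at most 6.21 CPM in any library. Of 4 neural markers tested 1 was higher and 3 were lower, and of 3 blood markers 1 was higher and 1 was lower. Of 2 epithelial markers tested 1 (*Cdh1*) was higher, and of 2 mesothelial markers 1 was lower. *Cdh1* entered the test only through KO MEFs (142 and 107 counts, against 10 and 9 in WT MEFs). The lower blood marker *Ptprc* entered only through WT MEFs.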

How the data were processed

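Total RNA from 2 KO and 2 WT samples was depleted of ribosomal RNA and sequenced strand-specifically. The authors called bases with CASAVA 1.8.2, mapped to mm9 (TopHat2, Bowtie) and obtained gene counts using HTSeq 0.5.4p3. The deposited raw counts cover 23537 genes. The normalized columns of the same table and the columns of the authors' own comparison (log2 ratio, p-value, adjusted p-value) were not used. The gene models of mm9 held 23393 of the identifiers and gave positions and exon lengths.

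The main test was the quasi-likelihood test of edgeR 4.0.16 (R 4.3.3) on the 15538 genes that its low-count filter left. Size factors were TMM, the model held genotype alone, and p-values were adjusted over these genes by Benjamini-Hochberg. SE was obtained as the ratio of the absolute log2 estimate to the root of F. CPM use TMM-scaled library sizes, and levels per kb use the union of exons. The fit was tested on simulated data, with 15289 genes, and it recovered 98 of 100 altered at a log2 change of 2 and 80 of 99 at 1, with 4 false calls. The simulation altered few genes, about as many up as down, with the same dispersion for every gene. In the real data 34.3% of genes were higher and 32.5% were lower, so it does not show how the test or scaling behaves under such wide change. Intervals of count ratios are exact (Clopper-Pearson, 95%). Permutation tests used scipy in Python. Alternatives were other scalings and filters, DESeq2 1.42.0, limma-voom (limma 3.58.1), a replicate block and the omission of each library in turn.

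The 10 genes were taken by name, and these genes, the lists and the tests were chosen with earlier results of these data known. From each list the text names up to 3 genes per direction with the largest change past an adjusted p of 0.05 and a mean of at least 1 CPM, and the most abundant gene per kb. *Efemp1*, *Efemp2*, *Hmcn2*, *Adamtsl2*, *Bmp7*, the neighbouring genes and the marker genes given as examples stand outside this rule. These were chosen after their values were seen. The list genes named only for shared exon sequence also stand outside the rule.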

Additional observations from a re-analysis of the deposited data

How the results depend on the processing

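None of the results changed direction under the alternatives that were run. Among the genes named by the rule a call was lost 8 times, once each for *Emilin1* and *Atp7a* and otherwise for the lower *Glb1* row. Of the list genes, 16 to 23 were higher and 28 to 34 were lower over the alternatives that kept all libraries. The 9 tested genes kept their call under each scaling, DESeq2, limma-voom and no filter. Requiring 10 counts in every library removed *Eln*, *Mfap4* and *Mfap5*, which left 2 genes past the stricter threshold. Without the filter *Eln* had an estimate of 2.0 on the log2 scale (adjusted p = 0.034, edgeR). Leaving out 1 library at a time gave 1.31 to 3.28 for *Eln*, with no value without KO replicate 1, and 0.16 to 0.36 for *Emilin1*. The number of the 10 genes that were higher then ranged from 3 to 5, 5 being reached where *Eln* could be tested and passed. With TMM-scaled sizes in place of totals, the 10 genes' share of the library differed by -0.129 percentage points (KO minus WT), against -0.106 with totals. Scaling by totals put the median of all genes at 0.17 on the log2 scale, against 0.02 with TMM. Depth limits *Eln* and *Mfap5*, and 2 libraries per genotype limit all tests.

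The replicate numbers were not taken to pair the samples, since nothing in the labels says that a number marks a shared litter or day. Deviations of libraries with the same number correlated at -0.03, a single value that cannot exclude a shared litter or day. With the replicate number as a block, 4 of the 10 genes were higher and 5 were lower, as without it, and 18 list genes were higher and 33 lower.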
